A study of Mus musculus with 24 samples.

Results

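The matrix metalloproteinases (Mmp genes), the ADAMTS proteases (Adamts genes) and the tissue inhibitors of metalloproteinases (Timp genes) were followed across RNA from whole mouse lung. Members were taken from the array's annotation by symbol alone, as every gene named Mmp, Adamts or Timp with a number. The rule gave 43 genes of 19494 with a symbol, made up of 21 Mmp, 18 Adamts and 4 Timp genes, each measured by 1 probe set. Lungs came from Marfan mice given sildenafil (5 arrays, numbered 8 to 12), Marfan mice given vehicle (5 arrays, 20 to 24), wild-type (WT) mice given sildenafil (4 arrays, 1, 4, 5 and 6) and WT mice given vehicle (6 arrays, 13 to 18). Sildenafil, an inhibitor of phosphodiesterase 5, was supplied in the drinking water starting at 6 weeks of age, and all mice were killed at 6 months of age. Marfan syndrome arises from mutant fibrillin-1, the microfibril protein around which elastin is laid down. The labels name these mice only as Marfan, and the sources used here do not give allele, strain, sex or the composition of the vehicle.

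Metalloproteinases are zinc enzymes that cut the extracellular matrix. Collagenases open fibrillar collagen, gelatinases clear denatured collagen and basement membrane, stromelysins and matrilysins cut many matrix proteins, and Mmp12, the macrophage elastase, cuts elastin. ADAMTS proteases are secreted enzymes that process proteoglycans and procollagens, and several of them bind to or act on fibrillin microfibrils. TIMPs block the active sites of both families. In lung, elastin loss with airspace enlargement is the setting in which Mmp12 is best known.

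All values are log2 intensities after quantile normalization, and all differences are on the log2 scale. The deposited array medians ran from 5.32 to 6.45, and their group means were 6.06 ± 0.28 for Marfan sildenafil, 6.03 ± 0.13 for Marfan vehicle, 6.06 ± 0.14 for WT sildenafil and 5.66 ± 0.19 for WT vehicle (SD, n = 5, 5, 4 and 6), so the WT vehicle arrays were dimmest. Y-linked genes were low on 1 Marfan sildenafil array, 2 Marfan vehicle arrays, 1 WT sildenafil array and 2 WT vehicle arrays. In bulk tissue fewer cells of a type and less RNA per cell cannot be told apart.

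Array 9, of the Marfan sildenafil group, differed from all others in its cell markers. Its 10 measured macrophage markers averaged 9.05, against a range of 6.95 to 7.63 on the others, and 7 of the 10 were at their highest there. Gpnmb, a marker of lipid-laden macrophages, read 12.03 on array 9 and Trem2 read 9.52, against other-array medians of 7.05 and 5.54. Its 7 basal and squamous epithelial markers averaged 6.01, against 3.61 to 4.14 elsewhere, with Krt5 at 7.78 and Krt14 at 8.03. Of the 7, 5 were at their highest, Krt15 lay within the range of the other arrays, and Ivl was at its lowest, at 3.08. Its 5 cardiac muscle markers averaged 4.98, against 7.55 to 8.61 elsewhere, and all 5 were at their lowest. Its 6 smooth muscle markers averaged 7.42, against 7.83 to 8.71 elsewhere, and 5 of the 6 were at their lowest. Its 9 lung tissue markers averaged 11.44, against 11.71 to 11.88 elsewhere, and 4 of the 9 were at their lowest, namely the alveolar type 1 markers Ager and Hopx (-0.69 and -1.25 from the median of the other arrays) and the endothelial markers Cldn5 and Pecam1 (-1.46 and -1.06). Another 2 of the 9, the surfactant genes Sftpa1 and Sftpd, were at their highest there (0.30 and 0.70 from that median). Its 9 neutrophil markers averaged 6.87, inside the range of the other arrays, but single markers lay outside it in both directions. Ltf was at its highest, at 8.25, and 2 were at their lowest, Ngp at 5.14 and Camp at 3.63. The part of these markers in the protease values was not tested. Member differences in comparisons that hold the Marfan sildenafil group are given with and without array 9.

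Of the 43 members, 9 lie in 1 run of neighbouring genes on mouse chromosome 9. In RefSeq the run holds 13 genes in the order Mmp13, Mmp12, Mmp1b, Mmp3, Mmp1a, Mmp10, Mmp8, Mmp20 and Mmp7, with 4 genes that are no members in between. Those in between include the metalloproteinase gene Mmp27, which is not among the genes analysed here. The RefSeq promoter windows (build GRCm38.p6, 250 bases before to 50 after each start site) matched 29 of the 43 members, including all 9 of the cluster. The AP-1 letters TGAGTCA, which Fos and Jun dimers recognise, stood on either strand in 7 of the 9 cluster genes and in 0 of the other 20 members, against 5.95% of 27025 genes with a window. The letters TATAAA stood in 9 of the 9 cluster genes and 2 of the other 20 members (15.7% of genes), and the GC box letters GGGCGG stood in 0 of the 9 and 16 of the 20 (38.2% of genes). In these genes no AP-1 match overlapped a TATA or GC box match. A match is a description of the letters and not a shown binding site.

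The stretches below run from base -110 to base -11 before the start site, all on the plus strand of GRCm38.p6, with the AP-1 letters in capitals. They are shown because Mmp12 (chr9:7347264-7347363), Mmp13 (chr9:7272404-7272503) and Mmp7 (chr9:7691980-7692079) gave the largest excess of the whole list on Marfan sildenafil array 9, whereas Mmp3 (chr9:7445712-7445811) and Mmp10 (chr9:7502232-7502331), with the same letters, did not, and Mmp8 (chr9:7558319-7558418) lacks them in this window. In Mmp13 the letters lie on the minus strand and read TGACTCA here. Mmp12 has a second, outer window in RefSeq without the letters, and Mmp7 also has a second window without them. For both genes the window that holds the letters is shown.
Mmp12: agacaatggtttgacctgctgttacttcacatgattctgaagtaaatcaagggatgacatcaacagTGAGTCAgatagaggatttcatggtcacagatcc
Mmp13: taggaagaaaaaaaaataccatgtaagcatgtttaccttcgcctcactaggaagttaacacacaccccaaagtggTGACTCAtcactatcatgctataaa
Mmp7: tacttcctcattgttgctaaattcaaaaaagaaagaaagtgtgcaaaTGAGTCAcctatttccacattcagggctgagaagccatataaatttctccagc
Mmp3: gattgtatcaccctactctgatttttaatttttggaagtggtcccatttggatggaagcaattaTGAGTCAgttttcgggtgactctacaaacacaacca
Mmp10: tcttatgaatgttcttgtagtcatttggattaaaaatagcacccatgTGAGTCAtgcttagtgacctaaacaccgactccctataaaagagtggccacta
Mmp8: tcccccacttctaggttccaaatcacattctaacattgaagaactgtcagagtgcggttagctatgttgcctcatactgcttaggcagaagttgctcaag

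**Figure D1:**
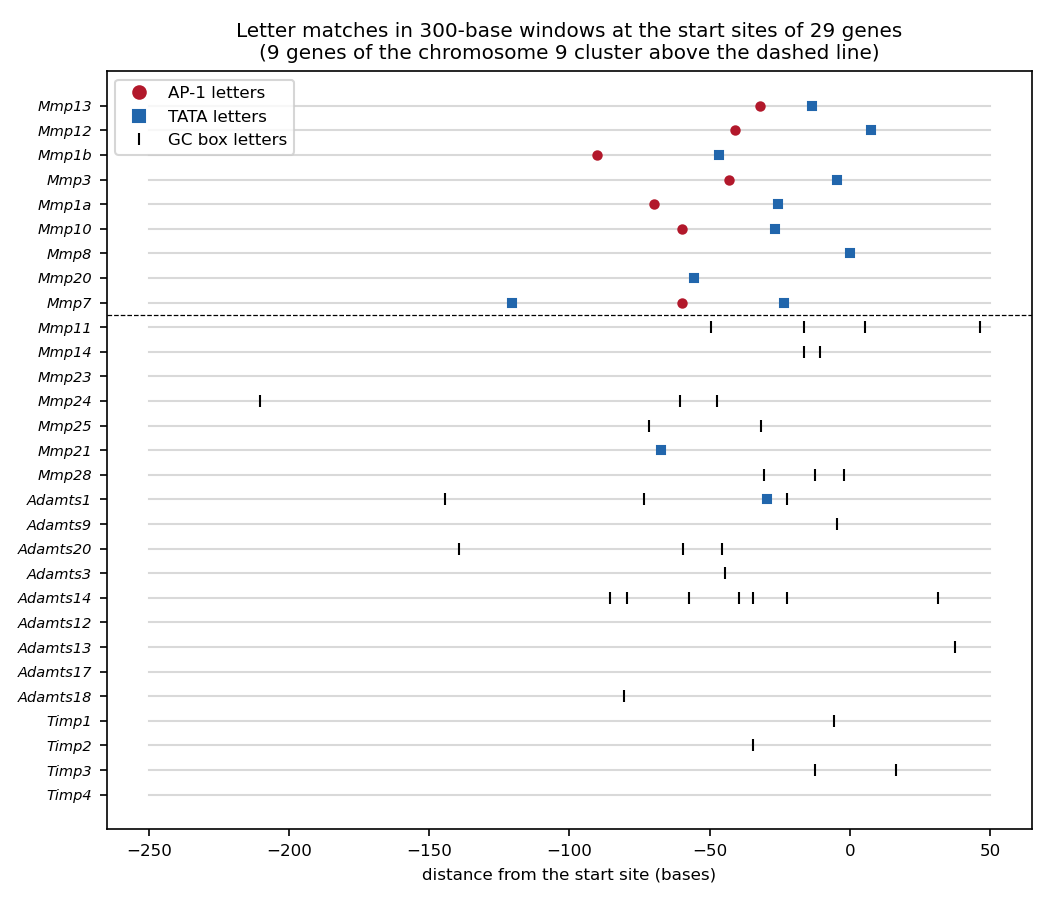
Positions of the AP-1, TATA and GC box letters (symbols) along the 300-base windows of 29 genes (one line per gene), by distance from the start site in bases. The 9 cluster genes above the dashed line hold AP-1 letters in 7 cases and GC box letters in 0, and the 20 other members hold AP-1 letters in 0 cases and GC box letters in 15 of the windows drawn (16 when a second window of a gene is counted).

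The members were unevenly detected. A probe set within 1 log2 unit of its array's background median was called near background. By this rule 28 members were clear of background on every array and 11 were near background on at least 50% of the arrays. Mmp1a and Mmp1b, grouped here with the collagenases, were near it on all 20. The inhibitors Timp2 and Timp3 averaged 10.36 and 9.77 over the 20 arrays and were never near background. Mmp12, Mmp2, Mmp9, Mmp14, Mmp19 and Mmp3 averaged 7.69, 7.68, 7.28, 7.34, 7.59 and 7.05, whereas Mmp13, Mmp7 and Mmp10 averaged 4.13, 3.17 and 3.23 and were near background on 10, 18 and 18 arrays. Among the ADAMTS genes Adamts10, which is mutated in human Weill-Marchesani syndrome, averaged 8.64 and the proteoglycanase Adamts1 averaged 8.01. Adamts13, which cleaves von Willebrand factor, averaged 3.33, and Adamts18 averaged 2.89, near background on 18 and 19 arrays. These are levels of single probe sets and do not rank the genes by transcript number.

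Spread between arrays of 1 group was wider for the members than for genes at large. The median within-group SD was 0.34 for the 43 members and 0.26 for all genes, and 0.32 and 0.25 without array 9. Mmp12 had an SD of 1.52, Mmp7 of 1.12, Mmp13 of 0.96 and Timp1 of 0.76, and without array 9 these were 1.09, 0.41, 0.47 and 0.49.

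**Figure D2:**
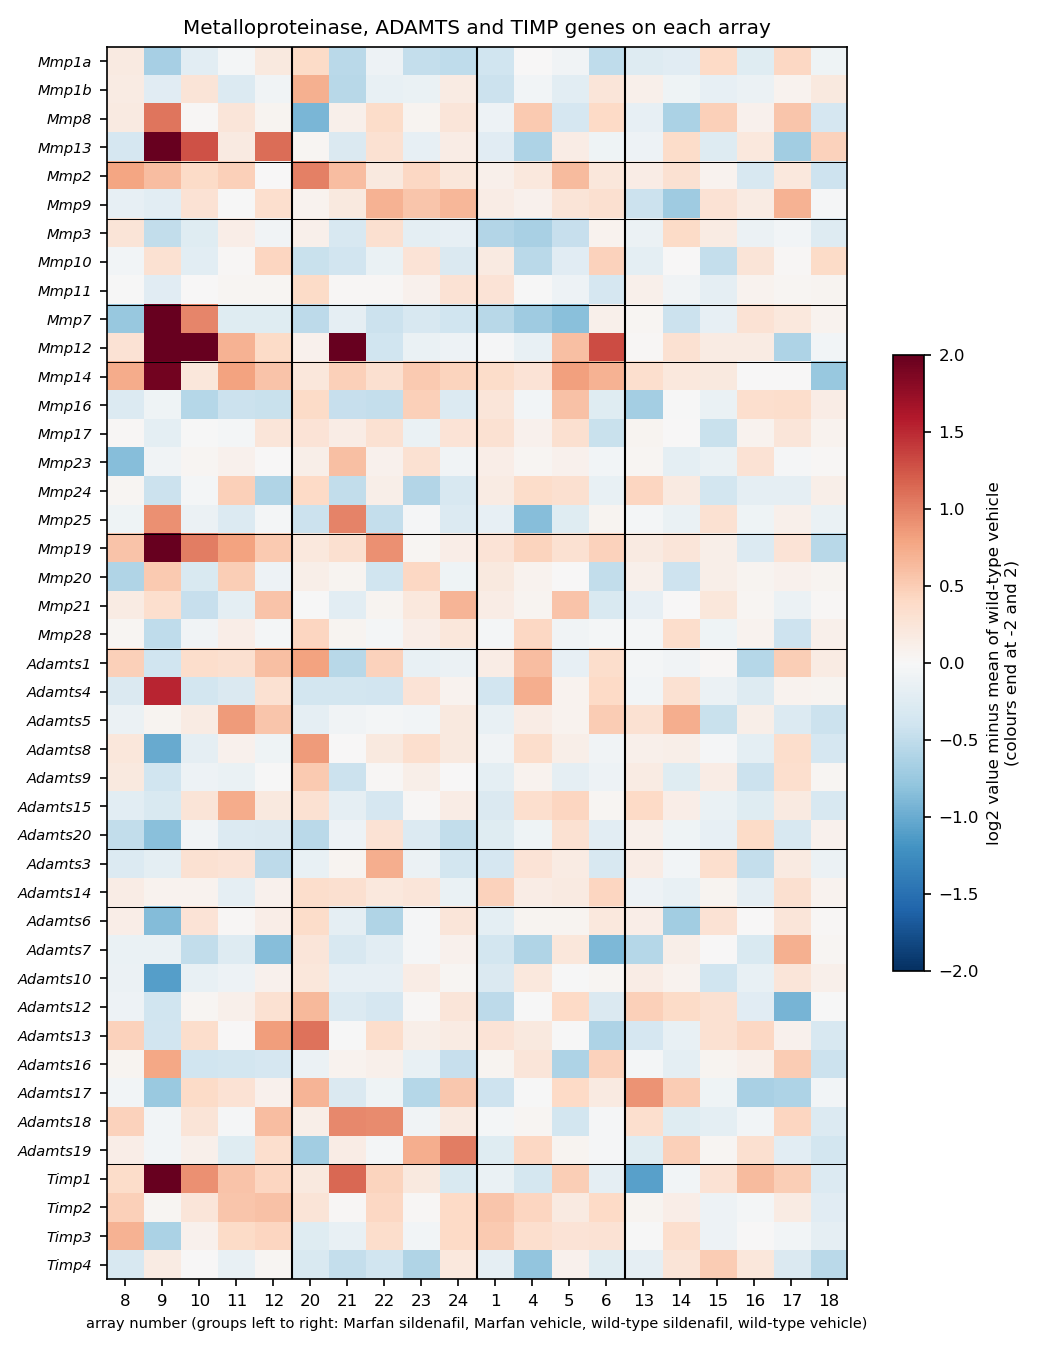
Each member (rows, grouped by role from collagenases at the top to inhibitors at the bottom) on each of the 20 arrays (columns, by group), coloured by its log2 value minus the mean of the WT vehicle arrays. Mmp13, Mmp7, Mmp12, Mmp19 and Timp1 reach the end of the colour scale on array 9, and Mmp12 also does so on arrays 10 and 21.

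The elastase, the matrilysin and the collagenase of the cluster gave the largest single values. Mmp12 read 7.22, 12.92, 10.01, 7.63 and 7.32 on the 5 Marfan sildenafil arrays and 7.02, 10.44, 6.54, 6.80 and 6.83 on the 5 Marfan vehicle arrays. It read 6.91, 6.79, 7.53 and 8.23 on the WT sildenafil arrays and 6.32 to 7.24, with a median of 7.02, on the WT vehicle arrays. Mmp12 was thus high on 3 Marfan arrays (9, 10 and 21), whereas all other Marfan arrays lay within the WT range of 6.32 to 8.23. On array 9 it was 57.0-fold above the median of the other arrays.

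Mmp13, the main interstitial collagenase of adult rodents, read 3.50, 8.19, 5.10, 4.02 and 4.95 under Marfan sildenafil and 3.88, 3.55, 4.14, 3.67 and 3.98 under Marfan vehicle. It read 3.61, 3.21, 3.98 and 3.75 under WT sildenafil and 3.14 to 4.30 (median 3.89) under WT vehicle. Arrays 9, 10 and 12 were above every array of the other 3 groups, and array 9 was 19.8-fold above the median of the others, of which 10 were near background. Mmp7, the matrilysin made by epithelium, read 2.39, 7.76, 4.11, 2.90 and 2.89 under Marfan sildenafil and 2.61, 2.97, 2.72, 2.82 and 2.75 under Marfan vehicle. It read 2.59, 2.43, 2.30 and 3.24 under WT sildenafil and 2.70 to 3.43 (median 3.19) under WT vehicle. Array 9 was the highest, array 10 came next, and the other 18 arrays were near background, so no fold is given.

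Outside the cluster, Mmp19 and Timp1 were also far higher on array 9. Mmp19, a widely made secreted enzyme, read 7.66, 11.14, 8.10, 7.90 and 7.61 under Marfan sildenafil and 7.29, 7.40, 7.99, 7.12 and 7.21 under Marfan vehicle. It read 7.36, 7.53, 7.39 and 7.54 under WT sildenafil and 6.53 to 7.35 (median 7.24) under WT vehicle. All 5 Marfan sildenafil arrays lay above all WT arrays, array 9 being 13.8-fold above the median of the others. Timp1, the inducible soluble inhibitor, read 6.11, 8.97, 6.66, 6.31 and 6.17 under Marfan sildenafil and 5.93, 6.89, 6.18, 5.93 and 5.43 under Marfan vehicle. It read 5.61, 5.40, 6.24 and 5.56 under WT sildenafil and 4.66 to 6.37 (median 5.86) under WT vehicle, so the groups overlapped apart from array 9, which was 7.65-fold above the median of the others.

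Array 9 was the highest of all 20 arrays for 10 members and the lowest for 8, against 12.4% and 13.8% of all genes. Marfan vehicle array 20 was also the highest for 10 members, and the lowest for 2, against 8.1% and 6.95% of all genes. On array 9, 8 of the members exceeded the median of the other arrays by more than 1 log2 unit (3.64% of all genes) and 2 fell short of it by more than 1 (2.73%). The 8 were the 5 above with Mmp14, the membrane collagenase that activates pro-Mmp2, at 1.58 above the median, the aggrecanase Adamts4 at 1.58 and the leukocyte enzyme Mmp25 at 1.04. The 2 low genes were Adamts10, at -1.14, and the proteoglycanase Adamts8, at -1.11, followed by Adamts6 at -0.92 and Timp3, the matrix-bound inhibitor, at -0.91.

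Genes of the cluster differed from each other on array 9. Mmp12, Mmp7 and Mmp13 were 5.83, 4.87 and 4.31 above the median of the other arrays, the neutrophil collagenase Mmp8 was 0.99 above it, and the stromelysin Mmp3, which was never near background, differed by -0.39. Little can be said of the other members of the cluster, since Mmp1a and Mmp1b were near background on all 20 arrays, the stromelysin Mmp10 on 18 and the enamel protease Mmp20 on 8. Mmp3 carries the AP-1 letters printed above, as do Mmp12, Mmp13 and Mmp7. On array 9 the urokinase gene Plau, an activator of plasmin, read 8.23 against a median of 5.68 on the other arrays, and its receptor Plaur read 9.62 against 8.14. The list of 16 activators and inhibitors from which these come went both ways, with 7 at their highest on array 9 and 3 at their lowest. The 7 were Plau, Plaur, Furin, Lrp1, Thbs2 and the protease inhibitors Tfpi2 (6.22, against a median of 5.04) and A2m (5.21, against 4.10). The 3 at their lowest were Reck (5.58, against a median of 6.87), Pcsk6 (5.68, against 6.72) and Pcsk5 (6.80, against 7.33). Of the 7 Fos and Jun genes, Fosl2 was above every other array there (8.00, against 6.54 to 7.57), Jun was below every other array (8.69, against 8.82 to 9.52), and the other 5 lay within the range of the other arrays. The 16 listed inducers of protease genes, which include these 7, averaged 7.33 on array 9, against 6.26 to 6.86 elsewhere. Of the 16, 8 were at their highest there and 1 at its lowest. Il1a read 8.02 and Il6 5.66, against medians of 5.44 and 3.62. Their part in the protease values was not tested. Array 10, with Mmp12 at 10.01, had a macrophage marker mean of 7.29, and array 21, with Mmp12 at 10.44, had 7.63, the highest apart from array 9. Array 8, with Mmp12 at only 7.22, had a macrophage marker mean of 7.31, above that of array 10. Mmp25 was highest on array 21, at 6.58.

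**Figure D3:**
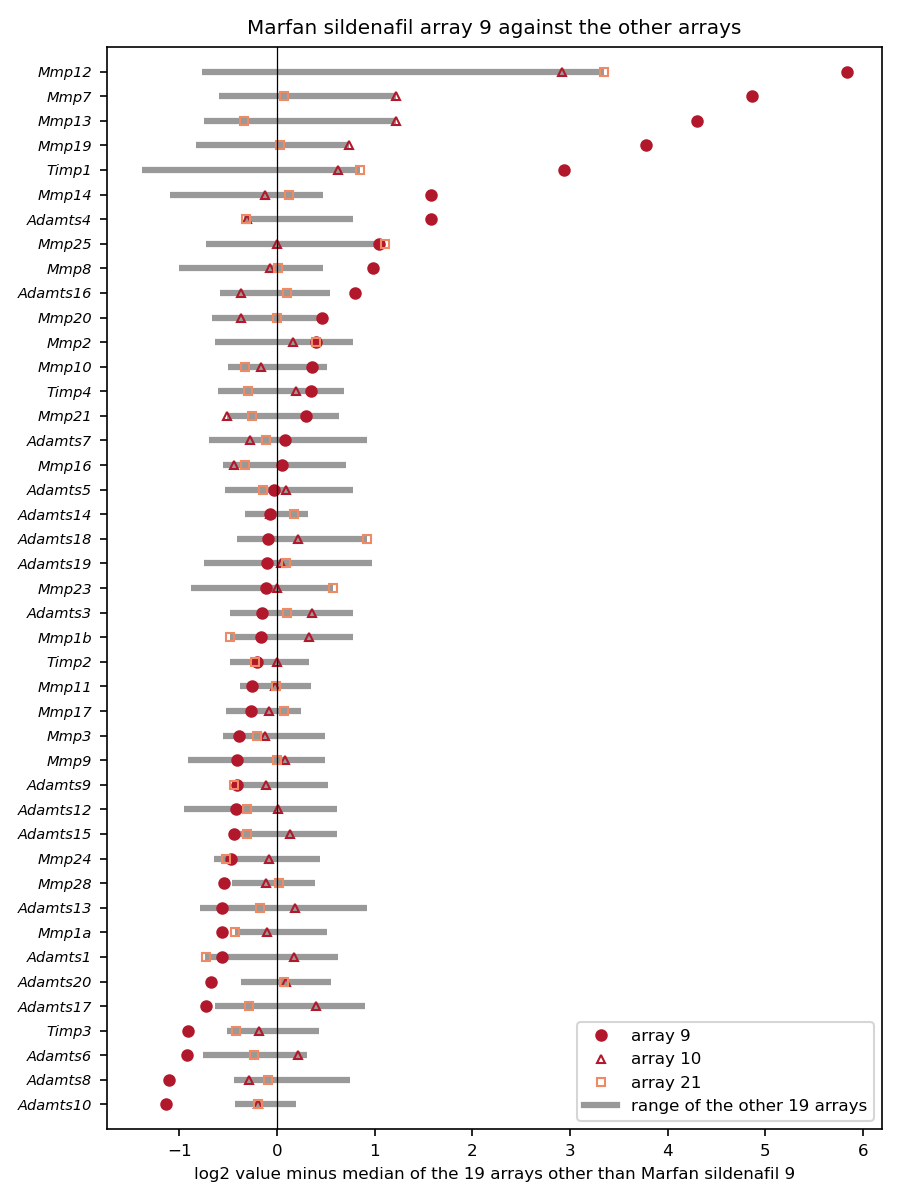
Each member's value on array 9 (filled circles), array 10 (triangles) and array 21 (squares), as the log2 difference from its median over the 19 arrays other than array 9. Grey bars span the range of those 19 arrays. Mmp12, Mmp7, Mmp13, Mmp19 and Timp1 lie more than 2 above the median on array 9, and Adamts8 and Adamts10 more than 1 below.

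**Figure D4:**
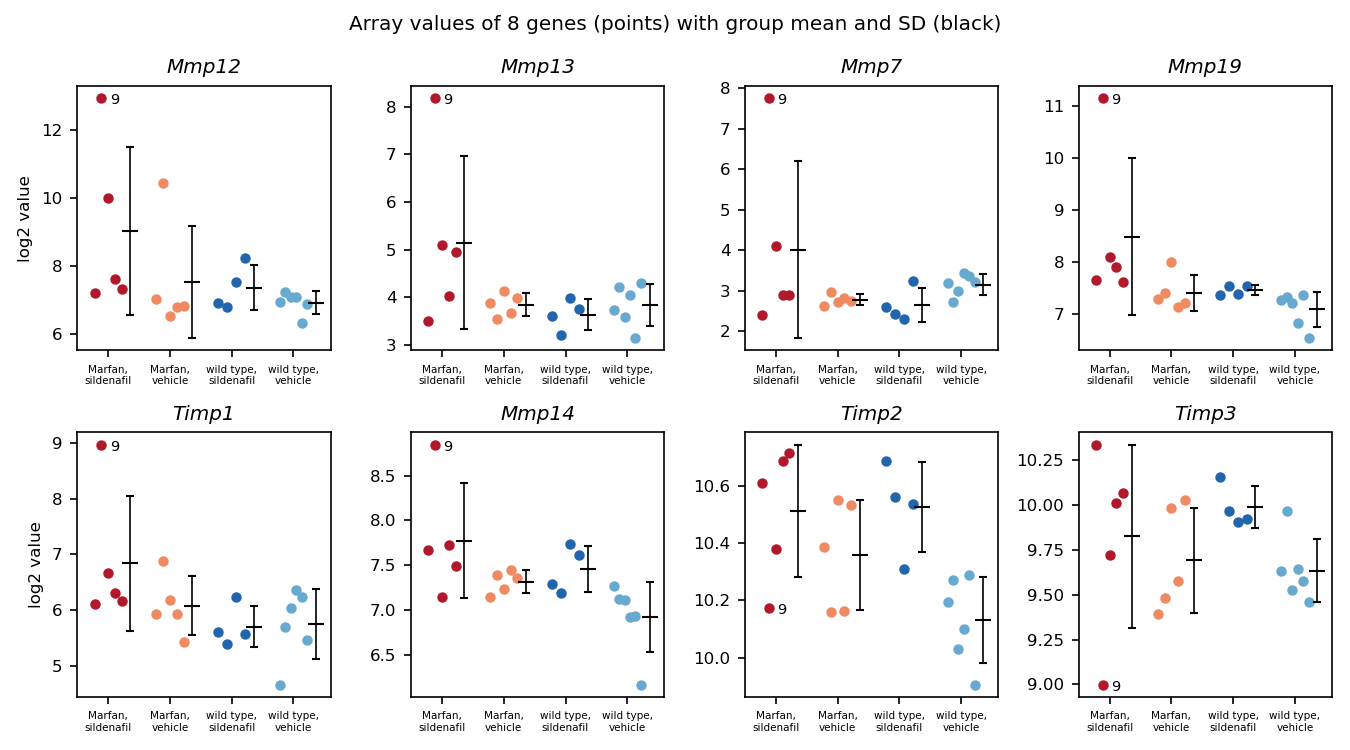
Log2 values of 8 members on every array (points) in the 4 groups, with the group mean and SD in black and array 9 marked. Array 9 sets the wide error bars of the Marfan sildenafil group for Mmp7, Mmp13, Mmp19 and Timp1, and WT vehicle is the lowest group mean for Mmp14, Timp2 and Timp3.

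Marfan and WT lungs were first compared under vehicle, which asks how the lungs of the 2 genotypes differed without the drug. No member passed (limma, adjusted p at or above 0.785, threshold 0.05), and neither did any of the 19494 genes (0% called). At an unadjusted p under 0.05, 4 members were higher and 0 lower, against 3.48% and 2.79% of all genes, and 27 members had a positive and 16 a negative difference. The 4 were Mmp2, Mmp9, Timp2 and Adamts18 (0.43 ± 0.20), the last near background on 19 arrays. Mmp14, described below, had an unadjusted p of 0.0758 (limma) with all arrays. The member median was 0.05, against -0.00 for all genes. Without array 9, which is in neither group but enters the shared spread, 6 members were higher and 0 lower (4.4% and 3.41% of all genes), and 0.0103% of genes (2, neither a member) were called.

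The gelatinases led this comparison. Mmp2, gelatinase A, read 8.38, 8.00, 7.58, 7.80 and 7.60 on the Marfan vehicle arrays, against 6.97 to 7.68 (median 7.50) on the WT vehicle arrays, a difference of 0.49 ± 0.16 (SE), or 1.41-fold (unadjusted p = 0.0053, adjusted p = 0.785). Of the 5 Marfan arrays, 3 lay above all WT vehicle arrays. Mmp9, gelatinase B, read 7.18, 7.32, 7.82, 7.67 and 7.78, against 6.41 to 7.81 (median 7.19), and the groups overlapped (0.43 ± 0.18, 1.35-fold, unadjusted p = 0.027, adjusted p = 0.788). Mmp14 read 7.14, 7.39, 7.24, 7.45 and 7.36, against 6.17 to 7.26 (median 7.02), with a difference of 0.40 ± 0.21. Timp2, which with Mmp14 docks pro-Mmp2 at the cell surface, read 10.39, 10.16, 10.55, 10.16 and 10.53, against 9.91 to 10.29 (median 10.15), with a difference of 0.23 ± 0.11.

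The WT vehicle arrays were also the dimmest before normalization. With the deposited array median as a covariate on all 20 arrays, the difference was 0.37 ± 0.28 for Mmp14, 0.02 ± 0.12 for Timp2, 0.52 ± 0.21 for Mmp2 and 0.52 ± 0.24 for Mmp9. Without array 9 and with no covariate it was 0.39 ± 0.15 for Mmp14, and with both changes together it was 0.01 ± 0.17 for Mmp14, 0.08 ± 0.12 for Timp2, 0.48 ± 0.21 for Mmp2 and 0.62 ± 0.23 for Mmp9. Of 18 listed matrix substrates, 6 were higher and 0 lower in Marfan vehicle lungs at an unadjusted p under 0.05. They included fibronectin (Fn1, 0.62 ± 0.21), the basement membrane chain Col4a2 (0.53 ± 0.19), fibrillar Col3a1 (0.41 ± 0.17) and E-cadherin (Cdh1, 0.20 ± 0.09), none with an adjusted p below 0.788. Of 5 mesothelial markers, 3 were higher and 0 lower at that level, with Msln differing by 0.66 ± 0.24, and the mesothelial mean ran from 6.72 to 7.52 on the Marfan vehicle arrays and from 6.32 to 7.08 on the WT vehicle arrays. Their part in the differences was not tested. Of 16 activators and inhibitors of the plasmin and convertase systems, 0 were higher and 0 lower, and Adam23, a brain-type ADAM without protease activity, differed by 0.76 ± 0.18 (adjusted p = 0.536).

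Under sildenafil, Marfan lungs were compared with WT lungs. No member passed (adjusted p = 1.00 at the lowest), nor did any gene (0% called). At an unadjusted p under 0.05, 4 members were higher and 1 lower, against 1.87% and 2.02% of all genes, and without array 9 also 4 and 1, against 1.69% and 1.54%. With all arrays the 4 were Mmp13, Timp1, Mmp19 and Mmp7 (1.37 ± 0.62), the last near background on 18 arrays. Mmp3, described below, had an unadjusted p of 0.0696 (limma) with all arrays. The member median was 0.02, against -0.00 for all genes. Mmp13 differed by 1.51 ± 0.54 (2.86-fold), and by 0.76 ± 0.29 (1.69-fold) without array 9. Timp1 differed by 1.14 ± 0.43 (2.20-fold) with and 0.61 ± 0.29 without it, and Mmp19 by 1.03 ± 0.44 with and 0.36 ± 0.18 without it. Each of these 3 differences was smaller without that 1 array, on which the means of the macrophage and squamous markers were also high.

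The difference of Mmp3, stromelysin-1, was instead larger without array 9. It read 7.42, 6.67, 6.93, 7.30 and 7.10 on the Marfan sildenafil arrays, against 6.58, 6.51, 6.71 and 7.24 on the WT sildenafil arrays, a difference of 0.33 ± 0.17, and of 0.43 ± 0.17 without array 9. Mmp16, a membrane enzyme, was the member with a negative difference, at -0.49 ± 0.23 with and -0.56 ± 0.24 without array 9, and was near background on 3 arrays. All 9 cluster genes had positive differences, with a median of 0.20, against -0.00 for all genes. Without array 9, 8 of the 9 were positive, with a median of 0.28. Of the 9, Mmp1a and Mmp1b were near background on all 20 arrays, Mmp10 and Mmp7 on 18, Mmp13 on 10 and Mmp20 on 8. With all arrays Mmp1a, Mmp1b, Mmp10 and Mmp20 differed by 0.06 to 0.14, each less than its SE. The count of signs therefore says little of the cluster as a whole. Of the 18 substrates, 4 were higher and 1 lower at an unadjusted p under 0.05, and 3 and 0 without array 9. Col3a1 differed by 0.61 ± 0.19 with and 0.54 ± 0.19 without it, Col1a2 by 0.31 ± 0.12 and 0.36 ± 0.13, and Col4a1 by 0.38 ± 0.18 and 0.44 ± 0.18. Fn1 differed by 0.58 ± 0.24 with and 0.30 ± 0.17 without array 9, and von Willebrand factor (Vwf) by -0.41 ± 0.19 and -0.25 ± 0.17, so both passed that level only with array 9.

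Sildenafil and vehicle were compared in Marfan lungs. No member passed (lowest adjusted p = 0.716), and 0% of genes were called. In this comparison 3 members were higher and 2 lower at an unadjusted p under 0.05, against 3.28% and 3.43% of all genes, and without array 9 the counts were 3 and 1, against 3.43% and 3.43%. With all arrays the 3 were Mmp13, Mmp19 and Mmp7. Mmp7 was near background on 18 arrays and had group means of 4.01 under sildenafil and 2.77 under vehicle. Timp3 and Timp2, described below, did not reach that level with all arrays. The member median was -0.03, against -0.01 for all genes. Mmp13 differed by 1.31 ± 0.51 (2.47-fold) with and 0.55 ± 0.27 (1.46-fold) without array 9, and Mmp19 by 1.08 ± 0.41 (2.11-fold) with and 0.41 ± 0.17 (1.33-fold) without it.

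The differences of Timp3 and Timp2 were larger once array 9 was left out. Timp3 read 10.33, 9.00, 9.72, 10.01 and 10.07 on the Marfan sildenafil arrays, where 9.00 is array 9, against 9.39, 9.48, 9.98, 9.57 and 10.03 on the Marfan vehicle arrays. Its difference was 0.13 ± 0.17 with and 0.34 ± 0.13 without array 9, and the groups overlapped either way. Timp2 read 10.61, 10.17, 10.38, 10.69 and 10.71, against 10.39, 10.16, 10.55, 10.16 and 10.53, and differed by 0.16 ± 0.11 with and 0.24 ± 0.10 without array 9. Adamts8 read 5.72, 4.48, 5.31, 5.58 and 5.40, where 4.48 is array 9, against 6.34, 5.50, 5.68, 5.82 and 5.69, and differed by -0.51 ± 0.20 with and -0.31 ± 0.18 without it. Mmp23, a membrane enzyme, differed by -0.37 ± 0.16 with and -0.39 ± 0.16 without it. Of 16 listed inducers of protease genes, 6 were higher and 0 lower at an unadjusted p under 0.05 (2 and 0 without array 9), led by Fos (1.12 ± 0.39 with and 1.08 ± 0.39 without it) and Fosl2 (0.47 ± 0.17 and 0.33 ± 0.16). Of 6 smooth muscle markers 0 were higher at that level with array 9 and 4 without it, and their part in these differences was not tested.

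Sildenafil and vehicle were compared in WT lungs, neither of which holds array 9. No member passed (lowest adjusted p = 0.359), and 0% of genes were called. Here 3 members were higher and 1 lower at an unadjusted p under 0.05, against 4.64% and 4.46% of all genes. The 3 were Timp2, Mmp14 and Adamts14, the last with group means of 5.55 under sildenafil and 5.25 under vehicle. Timp3, described below, did not reach that level with all arrays. Without array 9 in the shared spread, 4 were higher and 2 lower, against 6% and 5.16%. The median over the members was 0.04, against -0.00 for all genes.

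Timp2 was the clearest of the members here. It read 10.69, 10.56, 10.31 and 10.54 on the WT sildenafil arrays, against 9.91 to 10.29 (median 10.15) on the WT vehicle arrays, and the groups did not overlap. The difference was 0.39 ± 0.11, or 1.31-fold (unadjusted p = 0.0022, adjusted p = 0.359). With array brightness as a covariate it was 0.18 ± 0.13. Mmp14 read 7.29, 7.19, 7.74 and 7.62, against 6.17 to 7.26 (median 7.02), and differed by 0.54 ± 0.23, and by 0.51 ± 0.29 with that covariate. Timp3 read 10.16, 9.97, 9.90 and 9.92, against 9.46 to 9.97 (median 9.60), and differed by 0.35 ± 0.18, but by -0.07 ± 0.18 with array brightness as a covariate.

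Mmp19 differed by 0.37 ± 0.42 in this comparison, and by 0.37 ± 0.16 without array 9 in the shared spread. Mmp3 read 6.58, 6.51, 6.71 and 7.24, against 6.91 to 7.55 (median 7.09), with 3 of the 4 WT sildenafil arrays below all WT vehicle arrays, and differed by -0.41 ± 0.17 (unadjusted p = 0.021, adjusted p = 0.476). With array brightness as a covariate it differed by -0.67 ± 0.20. Mmp7 was near background in these groups and differed by -0.50 ± 0.60, and by 0.66 ± 0.66 with array brightness as a covariate. Of the 16 inducers, 4 were higher and 0 lower, with Fos at 0.95 ± 0.39 and Fosb at 0.80 ± 0.29, and thrombospondin-1 (Thbs1), which activates latent TGF-beta, differed by 0.90 ± 0.30. The 2 sildenafil comparisons within genotype use different arrays.

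**Figure D5:**
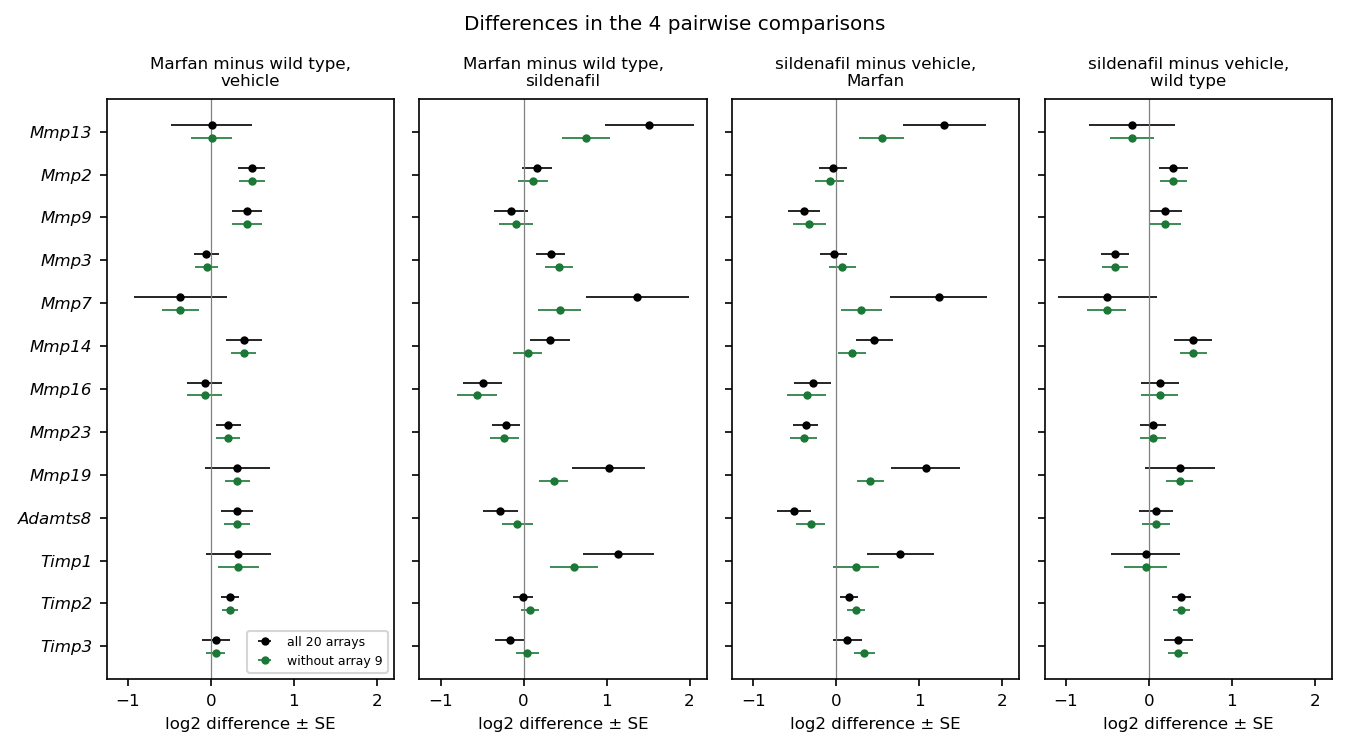
Log2 differences (points) with SE (bars) of 13 members in the 4 pairwise comparisons, for all 20 arrays in black and without array 9 in green, with the line at 0 for no difference. Mmp13, Mmp7, Mmp19 and Timp1 move towards 0 without array 9 in both comparisons that include the Marfan sildenafil group. The comparison under vehicle and the one within WT do not hold array 9. Their differences can therefore hardly move when it is left out, and mainly the SE changes.

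Whether sildenafil had a different effect in Marfan and WT lungs was tested with the interaction, the Marfan effect minus the WT effect. No member passed (lowest adjusted p = 0.984), and 0% of genes were called. At an unadjusted p under 0.05, 2 members were higher and 3 lower, against 1.96% and 2.51% of all genes, and without array 9 the counts were 2 and 1, against 2.12% and 2.23%. Over the members the median was -0.06, against -0.00 for all genes. Mmp7 had an interaction of 1.74 ± 0.83, and 0.81 ± 0.34 without array 9, and Mmp13 one of 1.51 ± 0.72 with and 0.75 ± 0.38 without it. Adamts14, a procollagen N-proteinase, had -0.46 ± 0.20 with and -0.47 ± 0.22 without array 9, and Mmp9 had -0.59 ± 0.28 with and -0.52 ± 0.27 without it. Mmp9 read 6.95, 6.92, 7.41, 7.12 and 7.45 on the Marfan sildenafil arrays and 7.18, 7.32, 7.82, 7.67 and 7.78 on the Marfan vehicle arrays, and 7.27, 7.20, 7.38 and 7.44 on the WT sildenafil arrays, against 6.41 to 7.81 (median 7.19) on the WT vehicle arrays. Adamts8 had an interaction of -0.60 ± 0.29 with and -0.39 ± 0.24 without array 9, and Mmp3 one of 0.38 ± 0.23 with and 0.48 ± 0.22 without it.

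Averaged over both treatments, Marfan was compared with WT. No member passed (lowest adjusted p = 0.918), and 0% of genes were called. At an unadjusted p under 0.05, 6 members were higher and 1 lower, against 2.79% and 2.55% of all genes, and without array 9 the counts were 6 and 0, against 2.78% and 2.35%. The member median was 0.05, against -0.01 for all genes. Mmp2 differed by 0.33 ± 0.12 (1.25-fold) with and 0.30 ± 0.12 without array 9. Timp1 differed by 0.74 ± 0.29 with and 0.47 ± 0.19 without it, and Mmp19 by 0.67 ± 0.29 with and 0.34 ± 0.12 without it. Adamts18, which was near background on 19 arrays, differed by 0.39 ± 0.15 with and 0.43 ± 0.15 without array 9, and the proteoglycanase Adamts20 by -0.28 ± 0.13 with and -0.22 ± 0.13 without it. Of the 18 substrates 7 were higher and 0 lower, and 8 and 0 without array 9, including Col3a1 (0.51 ± 0.13 with and 0.48 ± 0.12 without it) and Fn1 (0.60 ± 0.16 and 0.46 ± 0.11).

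Averaged over both genotypes, sildenafil was compared with vehicle. No member passed with all arrays (lowest adjusted p = 0.187, Timp2), and 0% of genes were called. At an unadjusted p under 0.05, 3 members were higher and 1 lower, against 5.16% and 5.75% of all genes. The member median was -0.01, against -0.00 for all genes, and the 4 Timp genes had a median difference of 0.26. Timp2 differed by 0.27 ± 0.08 (1.21-fold). Without array 9, 5 members were higher and 1 lower, against 6.65% and 6.42% of all genes, and 0.38% of genes (74) were called at an adjusted p under 0.05. Timp2 was the only member among these 74, at 0.32 ± 0.07 (1.25-fold, adjusted p = 0.0474), and Timp3 came close at 0.35 ± 0.09 (adjusted p = 0.0729). With array brightness as a covariate on all 20 arrays, Timp2 differed by 0.16 ± 0.08 and Timp3 by 0.02 ± 0.11. With that covariate and array 9 left out, Timp2 differed by 0.21 ± 0.09 (adjusted p = 0.878) and Timp3 by 0.18 ± 0.10.

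The other members of this comparison were Mmp14, at 0.50 ± 0.16 (1.41-fold) with and 0.36 ± 0.12 without array 9. With brightness as a covariate it was 0.48 ± 0.19 on all 20 arrays, and 0.10 ± 0.13 with array 9 left out as well. Mmp19 differed by 0.73 ± 0.29 with and 0.39 ± 0.12 without array 9. Adamts7, which cleaves cartilage oligomeric matrix protein, differed by -0.37 ± 0.16 with and -0.40 ± 0.16 without it. Of the 16 inducers 7 were higher and 0 lower (6 and 0 without array 9), among them Fos (1.04 ± 0.28 with and 1.01 ± 0.27 without it), Tgfb1 (0.27 ± 0.07 and 0.24 ± 0.07) and Il6 (0.68 ± 0.20 and 0.49 ± 0.14), with adjusted p from 0.162 upward on all arrays. The ADAMTS-like gene Adamtsl5, a secreted relative without a protease domain, differed by 0.28 ± 0.09 with and 0.27 ± 0.09 without array 9. Adamtsl2, which binds fibrillin-1, differed by -0.41 ± 0.17 with it (unadjusted p = 0.0252) and by -0.29 ± 0.15 without it (unadjusted p = 0.0536).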

How the data were processed

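RNA from whole lung was hybridised to Affymetrix arrays. Per the submitters' processing notes the deposited log2 values were made by the authors with Affymetrix Expression Console and RMA, with versions not stated in these sources. QIAzol and RNeasy columns served for extraction, and the RNA had an integrity number above 8.5, per the labels' protocols. Of 24 arrays, 4 titled as failing quality control held no values, which left 20. The deposited medians differed between arrays, so values were quantile-normalized over the arrays used. Of 29129 entries, 22142 were transcript probe sets and 19527 had 1 symbol; the probe set with the highest mean stood for each of 19494 genes.

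Using limma 3.58.1 in R 4.3.3, the 4 groups were fitted together (lmFit, eBayes with trend; 16 residual degrees of freedom), with two-sided p adjusted by Benjamini-Hochberg over all genes in each of 7 comparisons, and 0.05 as the threshold. The same code was tested on simulated data. Errors of differences are SE and those of group means SD. Nothing states that arrays came from separate animals, so a p-value measures only the spread among these samples. The labels give no sex, litter or batch. Arrays are numbered by group, so that any batch in that order cannot be told apart from the groups. The number of arrays limits the precision.

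Members and gene lists were chosen with earlier results of these data known. A member's difference is named where its unadjusted p is under 0.05 with all arrays or without Marfan sildenafil 9, at most 4 per direction and comparison, smallest p first. Every array's value is given for members named in 2 or more comparisons or exceeding the other arrays' median by over 2 on 1 array. Of other lists up to 4 genes with the smallest p are named; the non-member genes given for array 9 alone were chosen after their values were seen. Background was the median of 23 background probe sets on each array. The promoter windows come from RefSeq. Alternatives were the deposited values, median centring, the mean of probe sets, leaving out the dimmer 50% of genes, other variance models, array weights, array brightness or 3 Y-linked genes as a covariate, only the groups compared, and leaving out each array. The covariate together with leaving out array 9 was an alternative chosen after seeing the data.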

Additional observations from a re-analysis of the deposited data

Results flagged for a closer look

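Within each group of arrays, a member was singled out where its highest or lowest array lay far from the rest by Dixon's gap test at the 95% level. This gave 19 values in 172 groups of member values tested; at this level about 1 in 20 groups is singled out by chance. Array 9 carried 8 of the 19.

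On Marfan sildenafil array 9, Mmp19 read 11.14 (7.61 to 8.10 on the other arrays of its group), Timp1 8.97 (6.11 to 6.66), Mmp8 6.88 (5.83 to 6.04) and Mmp25 6.51 (5.32 to 5.55), all high. On the same array Adamts1 read 7.48 (8.19 to 8.48), Adamts10 7.61 (8.56 to 8.79), Adamts6 4.89 (5.77 to 6.02) and Mmp11 6.18 (6.39 to 6.45), all low. Mmp12, Mmp13 and Mmp7 were not singled out in this group; array 10 was the next highest for each.

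In the other Marfan arrays, Mmp23 was low on Marfan sildenafil array 8, at 6.02, and Adamts14 on Marfan sildenafil array 11, at 5.08. Mmp12 was high on Marfan vehicle array 21, at 10.44 against 6.54 to 7.02 on the rest of its group, and Mmp8 was low on Marfan vehicle array 20, at 4.89. Among WT sildenafil arrays, Mmp28 was high on array 4, at 6.75, and Adamts18 low on array 5, at 2.37, near background. Among WT vehicle arrays, array 14 carried Adamts6 at 5.05 and Mmp20 at 3.57, both low, and Timp3 at 9.97, high. Mmp17 was low on array 15, at 4.03, and Mmp14 on array 18, at 6.17, the array with the lowest deposited median.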

How the results depend on the processing

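For the 37 differences of members named by rule, out of 301 member differences in all, the alternatives gave 1119 values, of which 1115 kept their direction and side of the threshold, 2 newly passed and 2 reversed. The 2 that passed were Timp2 for sildenafil against vehicle averaged over genotypes, at 0.31 (adjusted p = 0.0459) with array weights and 0.32 (adjusted p = 0.0474) without array 9, which gave 1 member called in each of these settings. The 2 that reversed lay in sildenafil against vehicle in WT, where with array brightness as a covariate Timp3 was -0.066 and Mmp7 was 0.66. Over all 301 member differences this covariate turned the sign of 43, none with an unadjusted p under 0.05 in either fit. Among them were Mmp7 (0.73 with it, -0.37 without), Timp3 (-0.34, 0.06) and Adamts4 (0.21, -0.15) for Marfan against WT under vehicle, and Mmp13 (0.93, -0.20) for sildenafil in WT. The cause was not tested.

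Leaving out each array in turn gave 0 members called in 6 comparisons and 0 to 1 for averaged sildenafil. The member median then ran from -0.00 to 0.11 for Marfan against WT under vehicle, -0.00 to 0.08 under sildenafil, -0.05 to 0.07 for sildenafil in Marfan, -0.01 to 0.08 in WT, -0.09 to 0.04 for the interaction, 0.01 to 0.06 for averaged Marfan and -0.06 to 0.03 for averaged sildenafil. With the deposited values, where brightness is not removed, the member median (all-gene median) was 0.34 (0.25) for Marfan against WT under vehicle, 0.37 (0.28) for sildenafil in WT, -0.27 (-0.24) for the interaction, 0.18 (0.13) for averaged Marfan and 0.13 (0.16) for averaged sildenafil. With median centring the interaction median was 0.10 (0.13) and that of Marfan against WT under vehicle was -0.04 (-0.13). With the dimmer 50% of genes left out, the averaged sildenafil median was 0.13, over fewer members. Over all genes, array weights called 68 genes for averaged sildenafil, 5 for averaged Marfan and 1 for Marfan against WT under vehicle; the deposited values called 3, 2 and 5; leaving out dim genes called 11 for averaged sildenafil; the other settings with all arrays called 0. Signal near background limits what can be said of the 11 members that were dim on at least 50% of arrays. No paired analysis was possible because the replicate numbers do not repeat between groups.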
